A study of Mus musculus with 13 samples.

Results

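Chemokines and inflammatory cytokines are small secreted proteins that call immune cells into a tissue and set how its resident cells behave. Chemokines fall into classes by the spacing of their first cysteines (CXC, CC and CX3C) and signal through receptors of the G protein coupled type. The cytokines described here belong to the interleukin-1, interleukin-6 and TNF families and to a few single genes. In joints, interleukin-1, TNF and the interleukin-6 family are known for driving chondrocytes to break down matrix, while CXCL12 is a retention signal for blood-forming and skeletal progenitor cells. The genes were taken by symbol from the deposited gene table: every Ccl and Cxcl gene with a number in its symbol, Cx3cl1, and Il1a, Il1b, Il1rn, Il6, Il11, Il18, Il33, Lif, Osm, Tnf, Tnfsf10, Gdf15 and Tslp. This gave 48 of the 18748 genes in the table.

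RNA came from the cartilage of the mandibular condyle, the jaw side of the temporomandibular joint, in young mice (2 months old, 7 libraries) and aged mice (18 months old, 6 libraries). The labels give no strain, sex or treatment and do not say whether a library is 1 mouse, so p-values measure the spread between libraries, which may be technical. Summed expected counts ran from 17531694 to 18203443 per young library and from 16356839 to 17876681 per aged library. Chondrocyte markers were present at both ages, with a sum over 8 genes of 14035 to 21451 TPM (a level per gene length, scaled to library size) in young and 10990 to 29314 TPM in aged libraries. Within that list 4 genes fell and 2 rose. Col2a1, the main cartilage collagen, fell from 11189 to 3205 TPM and Matn1, a matrilin, from 87 counts over the young to 3 over the aged libraries, while Chad rose from 1850 to 8000 TPM and Comp from 3026 to 6446 TPM. Markers of blood and muscle were higher with age. The 10 erythroid markers summed to 1838 to 7086 TPM in young and 8525 to 62729 TPM in aged libraries, and the 10 skeletal muscle markers to 1027 to 9916 and 8535 to 31976 TPM.

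Of the 48 genes, 28 had enough counts to be tested and 20 did not. Aged libraries were higher for 13 of the 28 and lower for 1 (edgeR's quasi-likelihood test, Benjamini-Hochberg adjustment over all genes tested, threshold 0.05), and 14 were not called. Over all 14067 tested genes 24.7% were called higher and 21.6% lower. These shares are the background for each count of calls in a smaller group below. Scaled by library sizes alone, 17 members were higher and 1 lower, where 7034 of all tested genes were called higher and 1253 lower, and their median log2 change was 0.24. A log2 change is aged against young, and ± after it is its SE. Its median was 0.76 over the 28 genes and 0.014 over all tested genes. At least 2-fold changes were called for 10 higher and 1 lower member, where 8.67% and 2.89% of all tested genes were so called. The low-count filter bears on the count of rises, on the 2-fold count and on the median of the 28 genes. It asks for about 0.567 CPM (counts scaled to library size) in at least 6 libraries, and 6 of the 13 genes that rose, namely Ccl5, Ccl11, Ccl21d, Il11, Tnf and Gdf15, reached it in fewer young libraries than that. These 6 genes are all among the 10 called at least 2-fold higher, and they raise the median. The other 7 passed the filter in the young libraries alone. For 7 of the 28 genes the 2 ages showed no overlap between libraries, against 19.2% of all tested genes. Ccl5 and Ccl11 are among these 7, so the filter bears on this count too. A bulk library cannot tell fewer or more cells of a type apart from less or more RNA per cell.

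**Figure D1:**
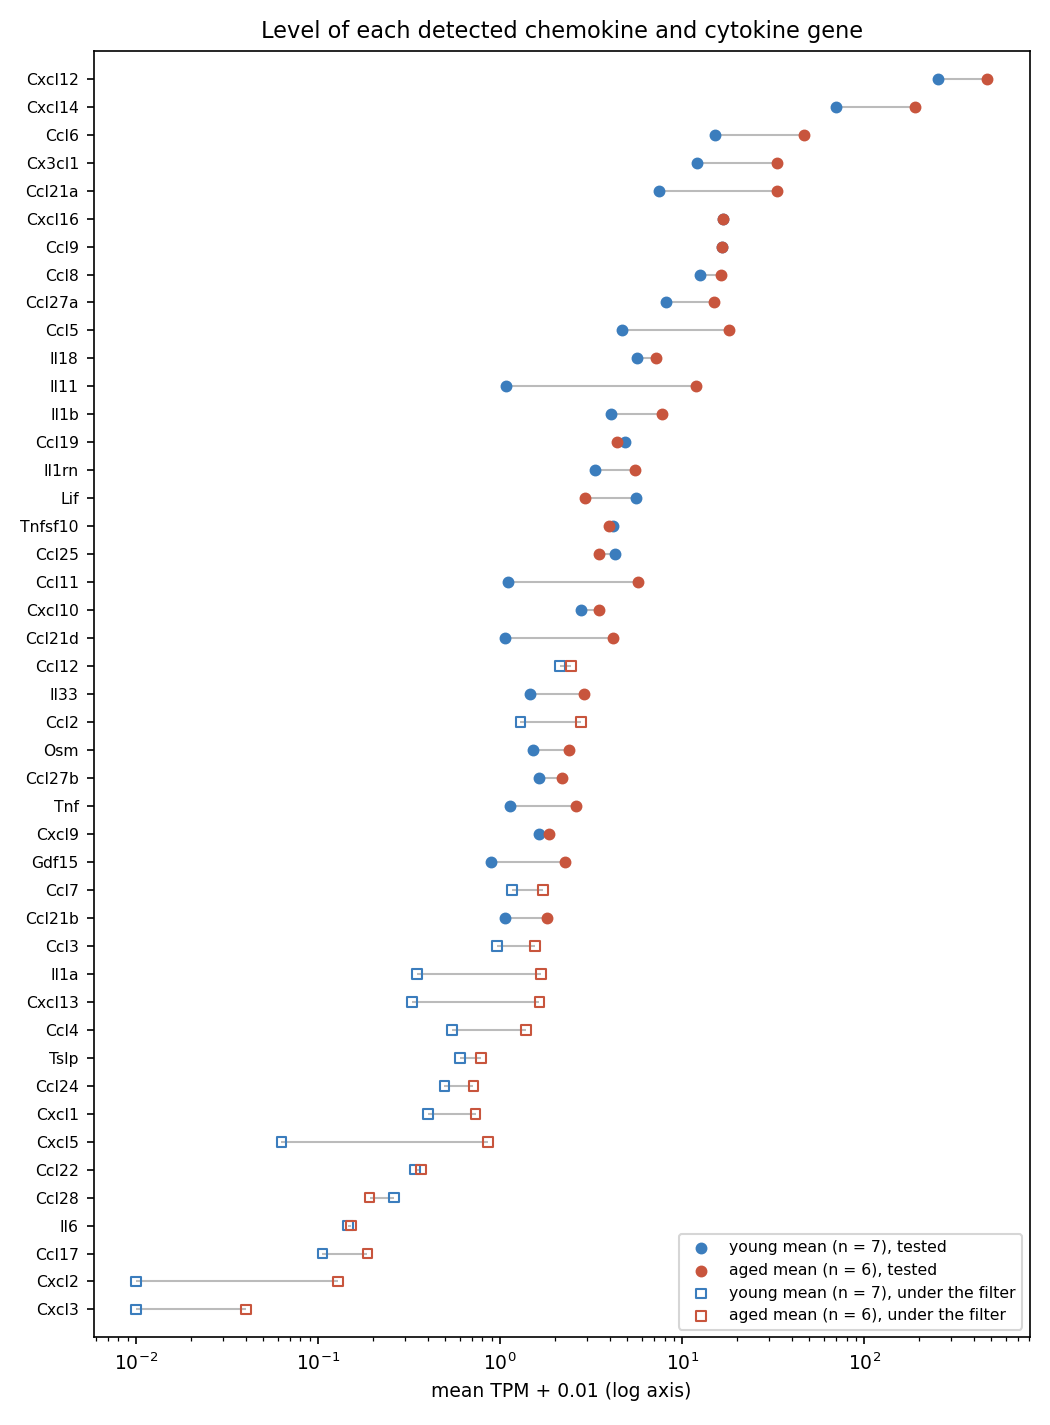
Mean TPM plus 0.01 (log axis) of each member with a count in some library, in young (blue, n = 7) and aged (red, n = 6) cartilage, with filled circles for tested genes and open squares for genes under the filter. Cxcl12 was highest at both ages, at 254 and 474 TPM, and Cxcl1, Cxcl2, Cxcl3 and Cxcl5 lay below 1 TPM.

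Per gene length, Cxcl12 was the highest member at both ages, at 254 ± 37.9 TPM (n = 7, SD) in young and 474 ± 55.2 TPM (n = 6, SD) in aged libraries. It made up 53.4 ± 2.74% of the summed TPM of the 48 genes in young and 49.8 ± 5.39% in aged libraries. Cxcl14 came next at 70.1 and 191 TPM. In young libraries Cxcl16, Ccl9 and Ccl6 followed, at 16.8, 16.5 and 15.2 TPM, and in aged libraries Ccl6, Cx3cl1 and Ccl21a, at 46.7, 33.4 and 33.3 TPM. No cytokine outside the chemokines passed 12 TPM on average at either age.

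Promoters of 5 members, picked by hand, are shown: genes that were abundant or rose (Cxcl12, Cxcl14, Il11) and inducible inflammatory genes that were low (Cxcl10, Il6). They do not stand for the whole family. Each is the run of 250 bases before the annotated start, 5′ to 3′, from RefSeq on build GRCm38.p6, which is not the build named in the submitters' processing notes. Capitals mark matches, on either strand, to the NF-κB consensus by name, AP-1 (TGANTCA), the interferon element ISRE (GAAANNGAAA), the STAT element GAS (TTCNNNGAA) and TATAAA.
Cxcl12 (chr6:117168285-117168534, plus strand): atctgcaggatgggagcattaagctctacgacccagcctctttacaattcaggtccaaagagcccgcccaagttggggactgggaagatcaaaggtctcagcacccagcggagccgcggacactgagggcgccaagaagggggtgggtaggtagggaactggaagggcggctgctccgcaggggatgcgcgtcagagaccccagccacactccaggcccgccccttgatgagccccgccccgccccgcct
Cxcl14 (chr13:56296552-56296801, minus strand): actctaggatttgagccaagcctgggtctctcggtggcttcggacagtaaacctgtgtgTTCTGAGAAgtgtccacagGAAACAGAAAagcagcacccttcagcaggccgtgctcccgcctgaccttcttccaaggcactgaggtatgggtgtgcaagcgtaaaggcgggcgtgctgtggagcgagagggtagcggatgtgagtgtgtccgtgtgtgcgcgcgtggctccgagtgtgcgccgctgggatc
Il11 (chr7:4778142-4778391, minus strand): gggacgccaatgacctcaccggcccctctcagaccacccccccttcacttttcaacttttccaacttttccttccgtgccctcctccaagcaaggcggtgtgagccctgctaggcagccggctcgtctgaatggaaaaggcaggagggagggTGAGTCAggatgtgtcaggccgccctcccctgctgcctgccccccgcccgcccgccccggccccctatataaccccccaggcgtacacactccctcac
Cxcl10 (chr5:92348890-92349139, minus strand): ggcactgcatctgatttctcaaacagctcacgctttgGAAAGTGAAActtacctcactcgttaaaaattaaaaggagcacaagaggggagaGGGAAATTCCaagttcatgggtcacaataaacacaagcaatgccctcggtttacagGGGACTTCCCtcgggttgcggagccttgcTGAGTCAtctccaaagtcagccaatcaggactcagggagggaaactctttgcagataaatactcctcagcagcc
Il6 (chr5:30012864-30013113, plus strand): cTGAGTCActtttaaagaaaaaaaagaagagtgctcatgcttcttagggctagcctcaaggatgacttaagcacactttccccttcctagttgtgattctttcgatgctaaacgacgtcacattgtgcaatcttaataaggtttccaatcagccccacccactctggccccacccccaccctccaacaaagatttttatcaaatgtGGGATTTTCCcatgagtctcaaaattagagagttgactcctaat

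Cxcl12 held none of these letters in this window. Cxcl14 held 1 GAS and 1 ISRE match, and the inner of the Il11 starts held 1 AP-1 match. The outer Il11 start, not shown, held no match. Cxcl10 held 2 NF-κB matches, 1 AP-1 and 1 ISRE match, and Il6 held 1 NF-κB and 1 AP-1 match. None of the matches printed in capitals overlapped another. Such windows were found for 37 of the 48 genes. The NF-κB consensus occurred in 7 of them (Cxcl1, Cxcl2, Cxcl3, Cxcl10, Ccl9, Ccl20 and Il6), of which 5 were under the filter and 2 were not called, and in 3.9% of all 32851 windows of this length. Ccl9 among these genes ranked 4 in level in young libraries, at 16.5 TPM. The NF-κB letters occurred in 0 of the 11 genes that rose and have a window. That says little where 3.9% of all windows hold them. AP-1 letters occurred in 9 members and 6.75% of all windows, ISRE in 3 and 2.98%, GAS in 2 and 7.02%, and TATAAA in 14 and 12.4%. A member was counted if any of its windows matched, while the percentages are shares of single windows, so they are unlike units. A match is a description of the letters only.

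In the group of other CXC and CX3C chemokines, all 3 genes called rose without overlap between the ages. Cxcl12 (gene ID 20315), the ligand of CXCR4, ranged from 232 to 380 CPM with a median of 299 in young and from 469 to 620 CPM with a median of 540 in aged libraries (CPM scaled by TMM, the trimmed mean of M-values). Every aged library stood above every young one. The log2 change was 0.86 ± 0.10 (edgeR adjusted p = 1.27e-05). Cxcl14 (gene ID 57266), a chemokine of epithelia and connective tissue, ranged from 38.9 to 60.9 CPM (median 52.7) in young and from 98.3 to 185 CPM (median 138) in aged libraries. Here too the ages did not overlap, at a log2 change of 1.40 ± 0.14 (edgeR adjusted p = 3.6e-06). Cx3cl1 (gene ID 20312), fractalkine, is made as a membrane-bound protein that holds CX3CR1-bearing monocytes. It was tightly grouped in young libraries, from 14.7 to 18.1 CPM with a median of 16.9, and ranged from 32.5 to 60.9 CPM with a median of 41.7 in aged ones. It rose by 1.40 ± 0.12 on the log2 scale (edgeR adjusted p = 1.24e-06), with no overlap. Cxcl16, a scavenger receptor and ligand of CXCR6, stood at 9.58 ± 1.43 CPM (n = 7, SD) and 9.27 ± 2.41 CPM (n = 6, SD). The difference, a log2 change of −0.047 ± 0.15, missed the threshold (edgeR adjusted p = 0.825). Bone marrow stromal cells are known for making CXCL12. Their 4 markers summed to 76.5 to 88.4 TPM in young and 56.6 to 85.2 TPM in aged libraries, where 1 rose and 2 fell. Kitl rose by 0.69 without overlap, Lepr (−0.97) and Foxc1 (−0.39) fell, and Ebf3 was not called at 0.23. These markers disagree, and the part of such cells in the Cxcl12 change was not tested.

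**Figure D2:**
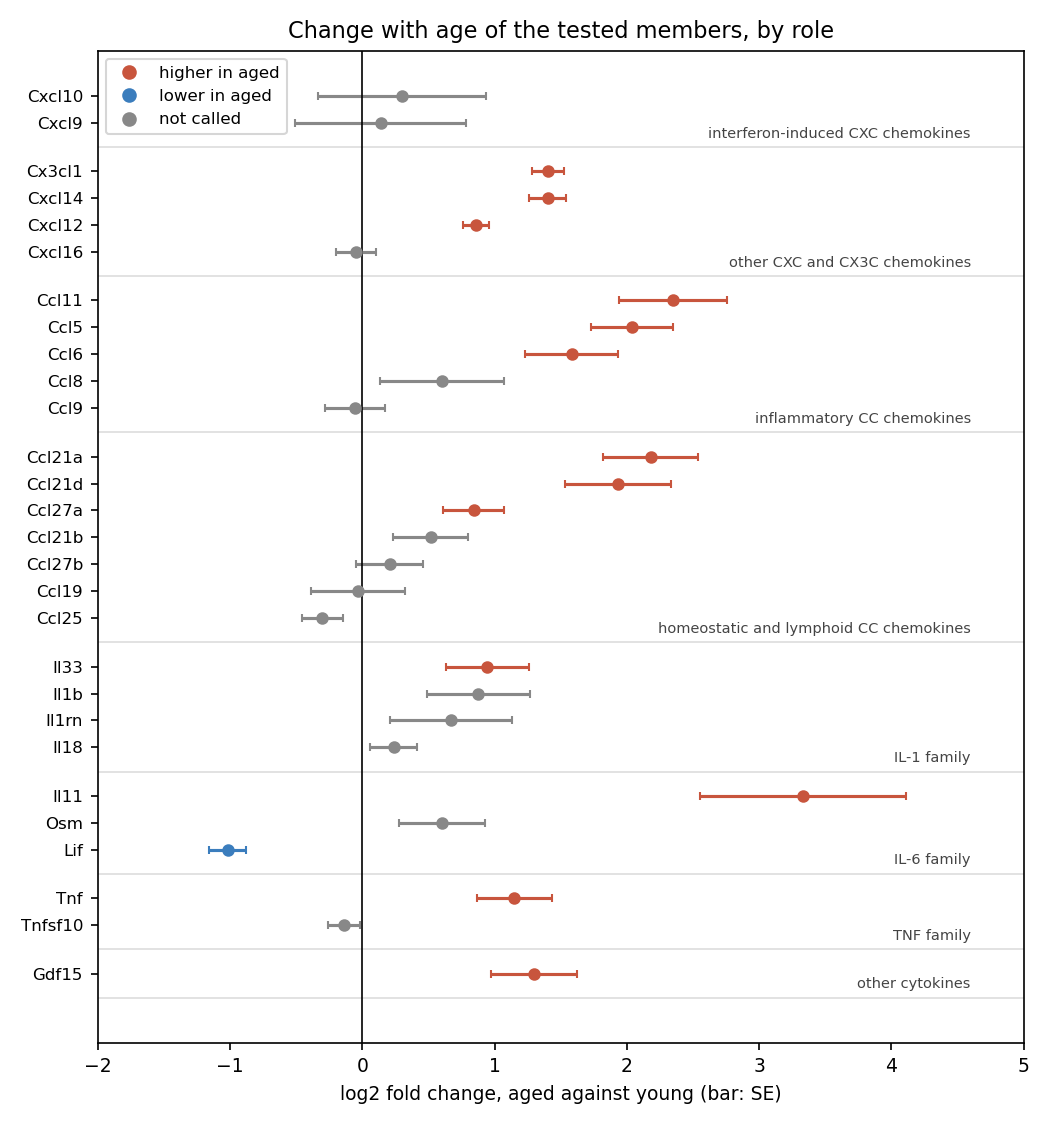
Log2 fold change (aged against young) of the 28 tested members with its SE, grouped by role and coloured by call. The 13 genes called higher lie between 0.84 and 3.33, Lif at −1.02 is the only one called lower, and the other 14 are not called.

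Of the neutrophil-attracting CXC chemokines, the members Cxcl1, Cxcl2, Cxcl3 and Cxcl5 had few counts at both ages. Cxcl1 had 14 counts over the 7 young and 24 over the 6 aged libraries. Cxcl2 and Cxcl3 were at 0 in every young library and had 5 counts and 1 count over the aged libraries. Cxcl5 had 4 counts over the young libraries and 61 over the aged ones, up to 23 in 1 library, with counts in 5 of 6. None passed the filter. Tested without a filter, Cxcl5 had a log2 change of 3.72 (edgeR adjusted p = 0.00212), a value that rests on few counts. Ppbp and Pf4, platelet chemokines whose symbols lie outside the rule, were called. Ppbp, the precursor of CXCL7, also attracts neutrophils and stood at 40.3 TPM in young and 351 TPM in aged libraries. It rose from 14.9 ± 8.69 CPM (n = 7, SD) to 127 ± 72.3 CPM (n = 6, SD), by 3.09 ± 0.48 on the log2 scale (edgeR adjusted p = 0.000183). Pf4 rose by 2.22 ± 0.41 (edgeR adjusted p = 0.000727).

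Interferon-induced chemokines were low and uneven between libraries. Cxcl10, a ligand of CXCR3, ranged from 0.241 to 3.77 CPM (median 0.733) in young and from 0.396 to 3.63 CPM (median 0.931) in aged libraries, at a log2 change of 0.30 ± 0.63 (edgeR adjusted p = 0.724). Cxcl9, another CXCR3 ligand, had a young median of 0.875 CPM with 1 library, young replicate 1, at 8.64 CPM, and an aged median of 2.47 CPM. Cxcl9 was not called, at 0.14 ± 0.64 (edgeR adjusted p = 0.877). Without young replicate 1 it was 1.25 and was called (edgeR adjusted p = 0.0233). Cxcl13, a B cell attractant, was under the filter with 15 counts over the young and 74 over the aged libraries, each aged library above each young one. Tested without a filter it stood at 2.29 (edgeR adjusted p = 0.00166). Cxcl17 was at 0 in all 13 libraries.

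Among the inflammatory CC chemokines, 3 of the 5 tested genes rose. Ccl6 (gene ID 20305), a myeloid chemokine of mice, ranged from 5.42 to 12.2 CPM (median 9.45) in young and from 6.90 to 47.3 CPM (median 25.5) in aged libraries. Of the aged libraries 5 stood above all young ones, and aged replicate 3 lay among them. The log2 change was 1.58 ± 0.35 (edgeR adjusted p = 0.00247). Ccl5 (gene ID 20304), the T cell and monocyte attractant RANTES, ranged from 0.306 to 0.870 CPM (median 0.408) in young and from 1.09 to 3.07 CPM (median 1.85) in aged libraries, without overlap. This was a rise of 2.04 ± 0.31 on the log2 scale (edgeR adjusted p = 0.000128). Ccl11 (gene ID 20292), the eosinophil attractant eotaxin, ranged from 0.116 to 0.816 CPM (median 0.351) in young and from 0.936 to 3.00 CPM (median 2.11) in aged libraries. It too showed no overlap, at a log2 change of 2.35 ± 0.41 (edgeR adjusted p = 0.0004). Once a muscle marker score entered the model, Ccl11 stood at 0.92 and lost its call (edgeR adjusted p = 0.0651), Ccl5 stood at 2.82 and Ccl6 at 2.23, both still called. The muscle score correlated with the age group at 0.76, so its effect and that of age cannot be fully told apart. On the log2(TPM + 1) scale Ccl11 stood at 1.70, and with a neutrophil and erythroid score in the model at 3.14, both called.

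The other genes of this group were not called or were under the filter. Ccl9, the most abundant of these in young libraries per gene length, averaged 21.7 ± 4.72 CPM when young (n = 7, SD) and 20.9 ± 8.67 CPM when aged (n = 6, SD), and the log2 change was −0.054 ± 0.23 (edgeR adjusted p = 0.865). Ccl8 stood at 0.60 ± 0.47 (edgeR adjusted p = 0.316). Ccl2, the main ligand of CCR2, was under the filter, with 35 counts over the young and 76 over the aged libraries, 38 of them in 1 library. Ccl3, Ccl4, Ccl7, Ccl12 and Ccl24 were also under it, with 10 to 31 counts over the young and 26 to 46 over the aged libraries. By gene order on GRCm38.p6, these genes lie side by side on chromosome 11 in runs of 6 (Ccl2, Ccl7, Ccl11, Ccl12, Ccl8, Ccl1) and 5 (Ccl5, Ccl9, Ccl6, Ccl3, Ccl4). Only Ccl11 was called in the first run, and Ccl5 and Ccl6 in the second.

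In the lymphoid and homeostatic CC group, 3 of the 7 tested genes rose, namely Ccl21a, Ccl21d and Ccl27a. Ccl21a (gene ID 18829), which guides CCR7-bearing lymphocytes and dendritic cells, ranged from 0.857 to 3.41 CPM (median 1.63) in young and from 3.59 to 15.2 CPM (median 8.94) in aged libraries. The ages did not overlap, and the log2 change was 2.18 ± 0.36 (edgeR adjusted p = 0.000266). Ccl21d (gene ID 100862177) ranged from 0.120 to 0.632 CPM (median 0.245) and from 0.345 to 1.89 CPM (median 1.30), with 5 of 6 aged libraries above all young ones. It rose by 1.94 ± 0.40 on the log2 scale (edgeR adjusted p = 0.00139), and the call was lost once the muscle score entered the model (1.44, edgeR adjusted p = 0.0876). On the log2(TPM + 1) scale it stood at 1.27 and was called. Ccl21b was not called at 0.52 (edgeR adjusted p = 0.154), but was without aged replicate 4 (0.69, edgeR adjusted p = 0.0203). Lymphatic endothelial cells are known for making CCL21. Their 3 markers summed to 28.5 to 39.0 TPM in young and 19.8 to 38.0 TPM in aged libraries, and 2 fell and none rose. Pdpn (23.9 and 15.5 TPM) and Flt4 (10.9 and 8.45 TPM) fell and made up nearly all of this sum. Prox1, at 0.239 and 0.273 TPM, was not called (0.11 ± 0.25, edgeR adjusted p = 0.755). The part of lymphatic cells in the Ccl21 change was not tested. The Ccl21 copies are near-identical in mice, so the split of reads between them is uncertain. Summed over the 3 copies the level ranged from 1.59 to 4.61 CPM in young and from 5.07 to 18.0 CPM in aged libraries, on average 3.83-fold higher (two-sided exact permutation test over 1716 splits, p = 0.000583, the smallest they can give, and 0.00117 adjusted over 2 sums).

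Ccl27a, a skin-type chemokine and the other gene of this group called, stood at 0.84 ± 0.23 (edgeR adjusted p = 0.00873), at 0.24 once the muscle score entered the model (edgeR adjusted p = 0.632), and at 1.48 with the neutrophil and erythroid score (edgeR adjusted p = 0.0138). Its reads too may be shared with Ccl27b, which stood at 0.21 and was not called. Their sum ranged from 2.29 to 4.08 CPM in young and from 2.38 to 5.94 CPM in aged libraries, on average 1.42-fold higher (two-sided exact permutation p = 0.0373, and 0.0373 adjusted over the 2 sums). Ccl19, the other CCR7 ligand, was at 0.577 ± 0.250 CPM (n = 7, SD) and 0.565 ± 0.252 CPM (n = 6, SD). Ccl25, known from thymus and gut, stood at −0.30 ± 0.16 (edgeR adjusted p = 0.125). Ccl17, Ccl22 and Ccl28 were under the filter with 1, 28 and 49 counts over the young and 3, 29 and 33 over the aged libraries. Ccl1 and Ccl20 were at 0 in all 13 libraries. A count of 0 allows up to 3 counts, or between 0.165 and 0.183 CPM in a library of this depth, for counting error only.

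**Figure D3:**
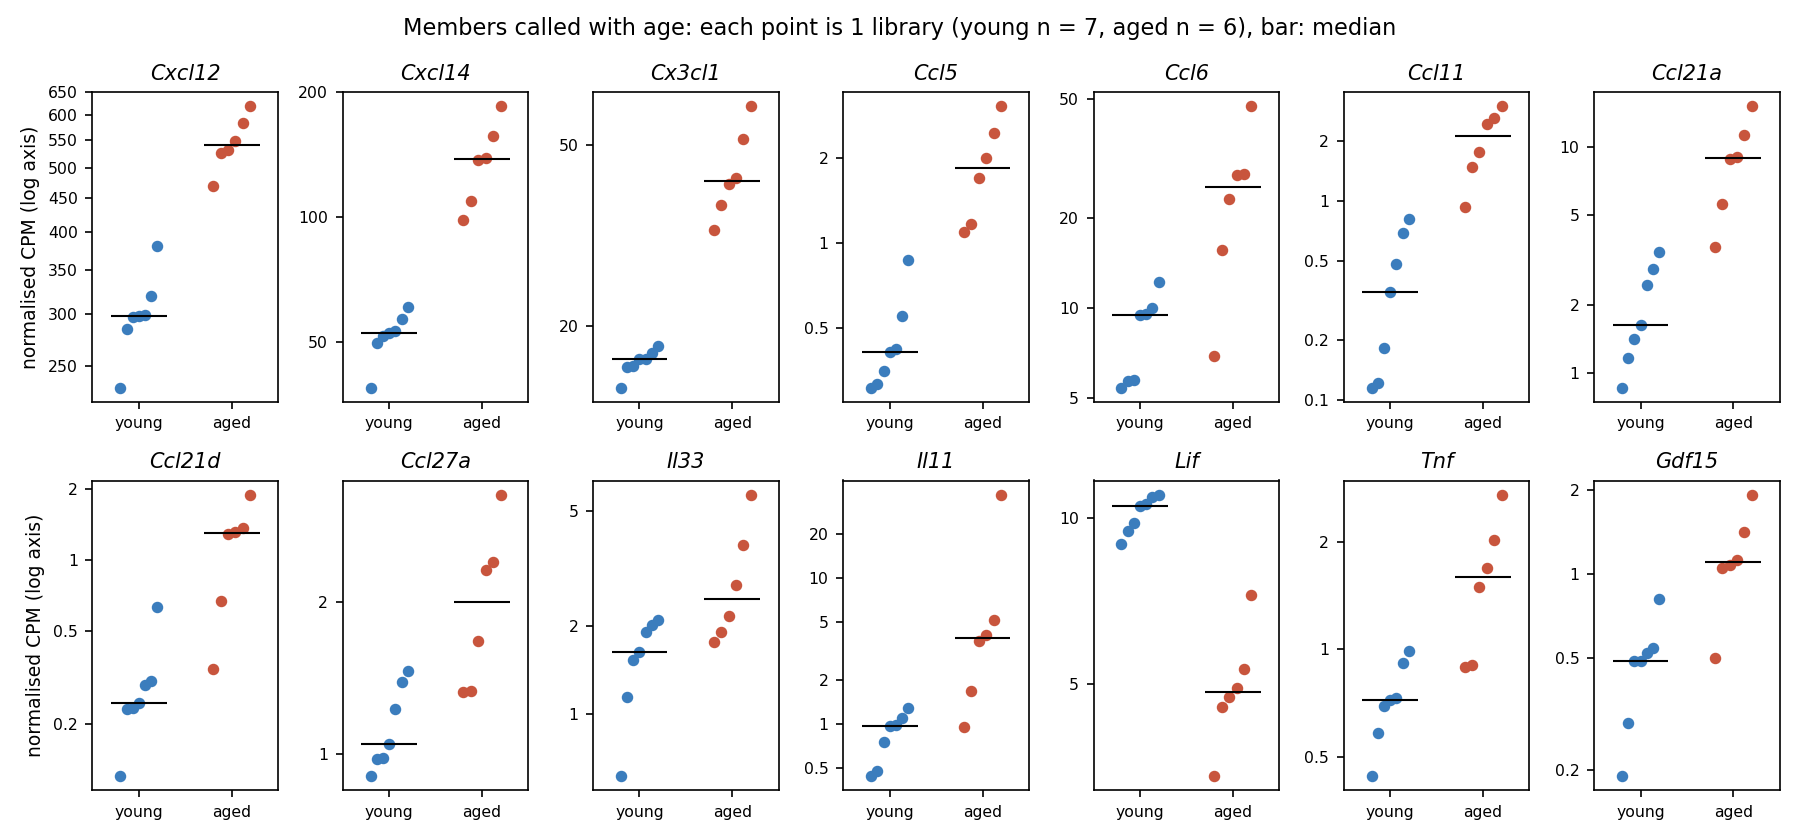
Normalised CPM (log axis) of the 14 called members in each library, with points sorted by value within young (blue, n = 7) and aged (red, n = 6) and a bar at the median. Cxcl12, Cxcl14, Cx3cl1, Ccl5, Ccl11, Ccl21a and Lif show no overlap between ages, and a single aged library stands far above the others for Il11.

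In the interleukin-1 family, 1 of 4 tested genes was called. Il33 (gene ID 77125), an alarmin released from damaged stromal cells, ranged from 0.612 to 2.10 CPM (median 1.64) in young and from 1.77 to 5.67 CPM (median 2.48) in aged libraries. The ages overlapped, with 4 of 6 aged libraries above all young ones, and the log2 change was 0.94 ± 0.32 (edgeR adjusted p = 0.0242). The call was lost without aged replicate 5 (0.87, edgeR adjusted p = 0.0512) or aged replicate 6 (0.66, edgeR adjusted p = 0.0717) and with any of the 3 marker scores in the model, where it stood at 0.73 to 0.90, and with the replicate number as a block (0.86, edgeR adjusted p = 0.142). Il18, the member of the family with the highest mean TPM over all libraries (5.66 TPM in young and 7.22 TPM in aged ones), ranged from 2.04 to 3.42 CPM (median 2.73) in young and from 2.34 to 4.04 CPM (median 3.26) in aged libraries. It was not called (0.24 ± 0.18, edgeR adjusted p = 0.294).

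Il1b, the main interleukin-1 of macrophages and neutrophils, ranged from 0.856 to 3.77 CPM in young and from 2.51 to 7.10 CPM in aged libraries. The log2 change of 0.88 ± 0.39 missed the threshold (edgeR adjusted p = 0.0771), and it was called without young replicate 1 (1.08, edgeR adjusted p = 0.0377), by limma, with library sizes alone, with the replicate number as a block and with the muscle score in the model. It stood at 0.032 with the neutrophil and erythroid score (edgeR adjusted p = 0.98) and at 0.36 with the monocyte and macrophage score (edgeR adjusted p = 0.494). Il1rn, the antagonist of the interleukin-1 receptor, was spread from 0.905 to 10.5 CPM in aged libraries against 2.34 to 6.00 CPM in young ones, and was not called (0.67 ± 0.46, edgeR adjusted p = 0.253). It was called lower, at −1.89, once the neutrophil and erythroid score entered the model (edgeR adjusted p = 0.0493). In aged libraries it was above all young ones in 3 and below all young ones in 2. Il1a was under the filter with 32 counts over the young and 147 over the aged libraries. Tested without a filter it stood at 2.19 (edgeR adjusted p = 0.00124).

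The interleukin-6 family held 1 rise, Il11, and the single fall among the tested members, Lif. Il11 (gene ID 16156), a cytokine of stromal cells and chondrocytes, ranged from 0.442 to 1.28 CPM (median 0.980) in young and from 0.962 to 37.0 CPM (median 3.89) in aged libraries. Aged replicate 4 stood at 37.0 CPM, with the other 5 aged libraries at most at 5.16 CPM and aged replicate 3 among the young ones. The log2 change was 3.33 ± 0.78 (edgeR adjusted p = 0.00348), and 1.84 ± 0.39 (edgeR adjusted p = 0.00197) without aged replicate 4. The value over all libraries is the largest of the 28 tested members, but the value without that library is below those of Ccl11, Ccl21a, Ccl5 and Ccl21d over all libraries. It was also smaller, between 1.79 and 2.64, by limma and with the replicate number as a block, and called by each. Lif (gene ID 16878), leukaemia inhibitory factor, moved the other way. It ranged from 8.98 to 11.0 CPM (median 10.5) in young and from 3.41 to 7.24 CPM (median 4.83) in aged libraries, so that every aged library lay below every young one. It fell by 1.02 ± 0.14 on the log2 scale (edgeR adjusted p = 4.88e-05). Osm, oncostatin M, which lies next to Lif on chromosome 11, was not called (0.60 ± 0.33, edgeR adjusted p = 0.147). Il6 itself was close to absent, with 6 counts over the young and 6 over the aged libraries.

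Among the remaining cytokines, Tnf and Gdf15 rose from low levels. Tnf (gene ID 21926) ranged from 0.442 to 0.991 CPM (median 0.722) in young and from 0.893 to 2.71 CPM (median 1.59) in aged libraries, with 4 of 6 aged libraries above all young ones. The log2 change was 1.15 ± 0.28 (edgeR adjusted p = 0.00419). Gdf15 (gene ID 23886), a stress-induced hormone of the TGF-beta superfamily, ranged from 0.190 to 0.816 CPM (median 0.490) and from 0.502 to 1.92 CPM (median 1.10), with 5 of 6 aged libraries above all young ones. Gdf15 rose by 1.30 ± 0.32 on the log2 scale (edgeR adjusted p = 0.00483). Tnfsf10, the death ligand TRAIL, ranged from 6.98 to 10.5 CPM (median 9.92) in young and from 7.24 to 11.1 CPM (median 8.22) in aged libraries and was not called (−0.14 ± 0.12, edgeR adjusted p = 0.362). Tslp, an epithelial alarmin, was under the filter with 27 counts over the young and 33 over the aged libraries.

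Markers of several immune cells were higher with age. The 13 neutrophil markers summed to 3909 to 11328 TPM in young (median 7563) and 5269 to 31473 TPM in aged libraries (median 18410), and 10 of them rose, led by Mpo at 1.83. The 16 monocyte and macrophage markers summed to 1664 to 2309 TPM in young and 2061 to 4667 TPM in aged libraries. Lyz2 (919 and 2314 TPM) and Ly6c2 (64.5 and 223 TPM), both also known from other myeloid cells, made up most of the difference. The other 14, a split chosen after the values were seen, summed to 917 to 1096 TPM in young and 739 to 1154 TPM in aged libraries. Of the 15 tested, 8 rose, led by Ly6c2 at 1.79, while Csf1r, the receptor of the macrophage growth factor, Cd68 and Mertk fell by 0.46, 0.43 and 0.46. T and NK cell markers summed to 18.6 to 29.8 and 29.7 to 69.1 TPM, and the 6 mast cell markers measured to 0.910 to 6.81 and 10.9 to 29.6 TPM. Nkg7 (9.07 and 29.7 TPM) made up most of the T and NK cell difference. Of the 5 T and NK cell markers tested, 2 rose and 1, Cd4, fell by 0.38. B cell markers summed to 196 to 436 TPM in young and 38.1 to 307 TPM in aged libraries. No marker of these lists was at 0 in every library.

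Aged replicate 3 had the lowest neutrophil marker sum of the aged libraries (5269 TPM) and the lowest aged levels of Ccl6, Il1rn and Il11. Aged replicate 6 had the highest sum (31473 TPM) and the highest levels of Ccl6 and Il1rn. These genes were named after their values were seen. By contrast, Il11 was highest in aged replicate 4 and Tnf lowest in aged replicate 5. Among the 13 members that rose, aged replicate 1, at a sum of 31182 TPM, was the lowest aged library for 5. Aged replicate 3 was the lowest for 2. Once the neutrophil and erythroid score entered the model, Ccl6 stood at −0.29 (edgeR adjusted p = 0.64) and Tnf at 0.068 (edgeR adjusted p = 0.929). Gdf15 stood at 0.56 (edgeR adjusted p = 0.483) and Il11 at 0.94 (edgeR adjusted p = 0.725), and none of the 4 was called. With the monocyte and macrophage score Ccl6 kept its call at 1.20 (edgeR adjusted p = 0.0223), while Tnf (0.77, adjusted p = 0.0607) and Gdf15 (0.98, adjusted p = 0.0534) lost theirs. These scores themselves follow age. Their correlation with the age group was 0.84 for the neutrophil and erythroid score, built from 13 neutrophil and 10 erythroid markers. It was 0.54 for the monocyte and macrophage score. A change with age and one with such a score can therefore not be fully told apart. The summed markers were also higher at the median in aged libraries, and the part of these cells in each change was not tested. For Cx3cl1, aged replicate 3 stood at 42.3 CPM, above the highest young library at 18.1 CPM. The neutrophil marker sum of aged replicate 3 was within the young range. Its erythroid marker sum, 8525 TPM, lay above that of every young library (at most 7086 TPM). Its muscle marker sum, 31976 TPM, was the highest of all libraries. This is 1 library, named after its values were seen, and the part of these cells in the Cx3cl1 change was not tested.

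**Figure D4:**
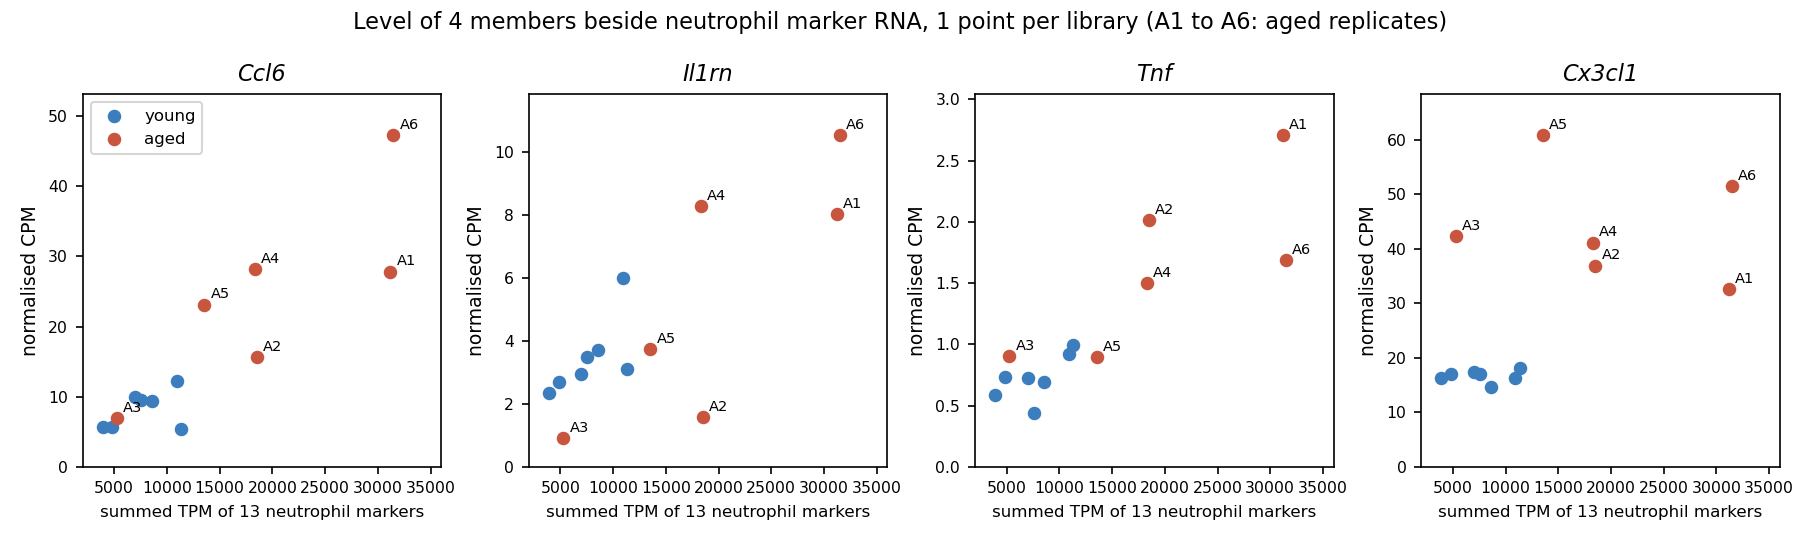
Normalised CPM of Ccl6, Il1rn, Tnf and Cx3cl1 against the summed TPM of 13 neutrophil markers in each young (blue) and aged (red) library, 4 members chosen after their values were seen. Aged replicate 3, at 5269 TPM of neutrophil markers, lies among or below the young libraries for Ccl6, Il1rn and Tnf and above all of them for Cx3cl1.

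Among the chemokine receptors, rises outnumbered falls. Of 22 listed receptors 15 were tested, 8 rose and 2 fell, at a median log2 change of 0.57. Among the rises, Ccr9 and Cxcr3 had young medians of 0.367 and 0.244 CPM, under the filter's 0.567 CPM. The filter therefore bears on this count of rises and on the median. Over all tested genes 24.7% rose and 21.6% fell. Ackr1, the atypical receptor of venules and red cells, went from 1.22 ± 0.189 CPM (n = 7, SD) to 4.34 ± 1.11 CPM (n = 6, SD) without overlap (1.83 ± 0.19, edgeR adjusted p = 4.1e-06). Ccr2, the receptor of inflammatory monocytes, went from 13.1 ± 3.88 to 38.0 ± 17.4 CPM (a rise of 1.54 ± 0.28, edgeR adjusted p = 0.000695). Ccr1 and Ackr4 fell by 0.52 and 0.49 on the log2 scale. Among receptors of the abundant ligands, named after their values were seen, Cxcr4 rose by 0.57 (edgeR adjusted p = 0.0394). Ackr3, the other CXCL12 receptor, was not called (0.25 ± 0.12, edgeR adjusted p = 0.0902), nor was Cx3cr1 (−0.0079 ± 0.13, edgeR adjusted p = 0.966) or Ccr7 (−0.0081 ± 0.33, edgeR adjusted p = 0.987).

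Of 18 cytokine receptors and decoys tested, 7 rose and 3 fell, at a median of 0.23, where 24.7% and 21.6% of all tested genes did. Il18r1 and Il1rl1, the receptors of interleukin-18 and interleukin-33, rose by 1.95 ± 0.38 and 1.91 ± 0.28. Il1rl1 is also made by mast cells, whose markers rose in 5 of 5 tested cases. Of these, Cma1, Tpsb2, Mcpt4 and Ms4a2 had young medians of 0.244 to 0.429 CPM, under the filter's 0.567 CPM. They passed it with the help of aged libraries, so the filter favours rises in this count. The part of mast cells in the Il1rl1 change was not tested. Lifr, the receptor subunit of LIF, fell from 355 ± 23.9 CPM (n = 7, SD) to 213 ± 49.0 CPM (n = 6, SD), without overlap (−0.74 ± 0.13, edgeR adjusted p = 0.000396). Tnfrsf23, a decoy receptor of TRAIL, fell by 0.50. Il11ra1 and Il6st, which together bind interleukin-11, were not called at 0.13 and 0.16 (edgeR adjusted p = 0.39 and 0.0933) and were named after their values were seen.

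Of 20 feedback and target genes of NF-κB, all tested, 6 rose and 1 fell, and the median log2 change was 0.011. This share of rises was near the 24.7% of all tested genes, of which 21.6% fell. Ccrl2 and Nos2 rose by 0.90 ± 0.17 and 0.76 ± 0.25, and Nfkbie, an inhibitor of NF-κB, fell by 0.34. Of 12 tested JAK-STAT3 genes 4 rose and 1 fell, at a median of 0.22. Lcn2, a protein of neutrophil granules that is also induced in chondrocytes, rose from 59.2 ± 26.4 to 167 ± 102 CPM (SD) and Pim1, a kinase, by 0.77 ± 0.13 on the log2 scale, while Socs1, a feedback inhibitor, fell by 0.53. Of 8 genes for inflammasomes and cytokine release 5 rose and 1 fell, at a median of 0.53. Nlrp3 and Aim2, inflammasome sensors, rose by 1.32 ± 0.33 and 0.96 ± 0.17, and Adam17, the protease that releases TNF from the membrane, fell by 0.28 ± 0.05.

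**Figure D5:**
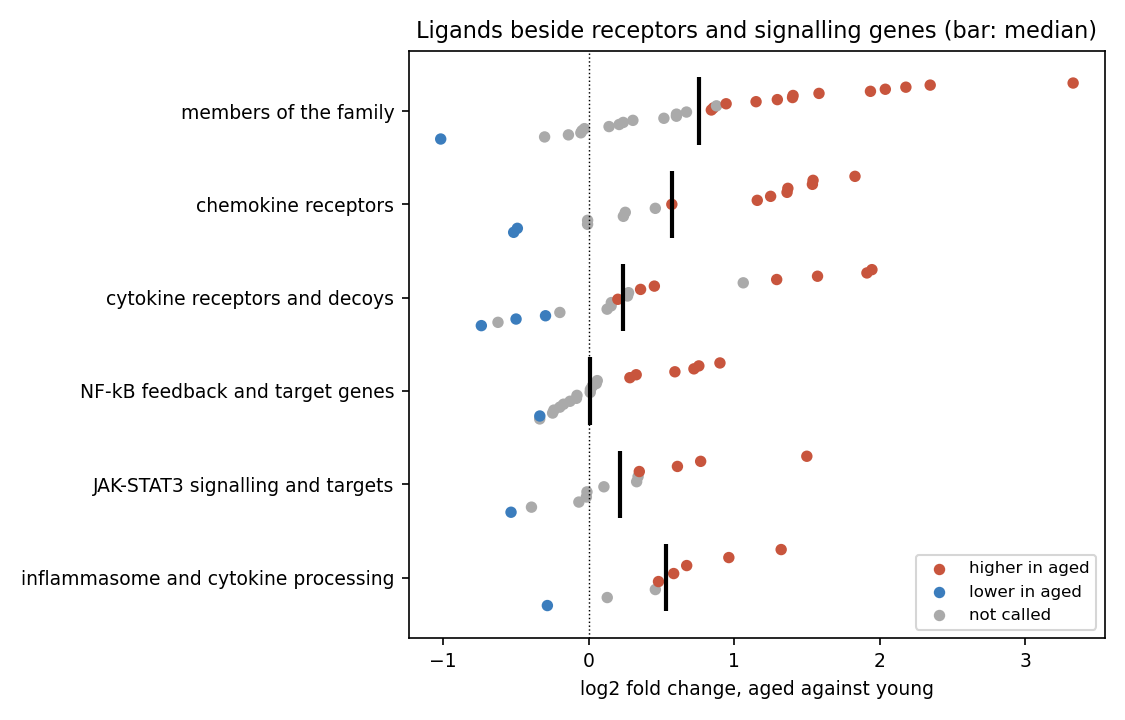
Log2 fold change (aged against young) of each tested gene in the ligand family and 5 related lists, with 1 point per gene coloured by call and a bar at the list median. The median was 0.76 for the ligands, 0.57 for chemokine receptors and 0.011 for NF-κB feedback and target genes. The ligand median includes 6 genes called higher that reached the low-count filter in fewer than 6 young libraries, which raises it. The receptor median includes Ccr9 and Cxcr3, called higher with young medians under that filter.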

How the data were processed

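Messenger RNA of 13 libraries was sequenced with paired, strand-specific reads, per the labels' protocols. RSEM 1.3.1, HISAT2 2.1.0, DESeq2 1.4.5 and Bowtie2 2.3.4.3 appear beside build GRCm39 in the submitters' processing notes, which give no roles. Which annotation was used is not given in those sources. The authors deposited 1 table with expected counts per library (5.3% of values not whole). It also gives TPM, and FPKM that were not used, both scaled by the authors for gene length and library size, per the file headers.

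Expected counts were rounded. The test was that of edgeR 4.0.16 under R 4.3.3 (filterByExpr with minimum count 10 and minimum total 15, TMM, robust glmQLFit and glmQLFTest) over all genes, adjusted by Benjamini-Hochberg, with 0.05 as the threshold. The SE is the log2 change divided by the square root of F. Outliers were sought on log2 CPM with a prior count of 2. The members and all lists were chosen with earlier results of these data known. Full values are given for called members with a log2 change of at least 1 in size and, in each role, for the called member that changed most and the most abundant one. From each pathway list come the 2 called members that changed most in each direction, and from marker lists the one that changed most. Other names outside the members were chosen afterwards, whether or not this is said where they stand. Among the markers these include Col2a1, Chad, Comp, Csf1r, Cd68 and Mertk. Alternatives were no filter, a minimum count of 30, library sizes alone, RLE, DESeq2 1.42.0, limma 3.58.1 (voom, and log2(TPM + 1) or log2(TPM + 0.1)), 3 marker scores as covariates (each the mean, over its listed genes, of log2 CPM standardised across libraries), a replicate block and leaving out every library in turn. On simulated data for the age comparison (14067 genes, 200 changed), 68% of genes changed 1.5-fold, 84% at 2-fold and 98% at 4-fold and at 8-fold were recovered, and 2.79% of calls were false. The 200 genes were drawn over all levels and changed up and down alike, while 46.2% of genes were called in the real comparison. These rates therefore need not hold for that comparison or for members with few counts. Plots used Python 3.11.15 and matplotlib 3.10.9. With at least 16356839 counts per library, counting error matters mainly for genes under about 1 CPM.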

Additional observations from a re-analysis of the deposited data

Results flagged for a closer look

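In 3 cases 1 library lay farther from the others of its age than a 95% limit for such a gap allows, where chance gives about 1 in 20 groups, or 2.8 of the 56 groups examined, so the count is near that of chance. Cxcl9 was at 8.64 CPM in young replicate 1, with the next young library at 1.75 CPM. Cxcl16 was at 12.6 CPM in the same library, with the next at 10.1 CPM. Ccl21b was at 0.277 CPM in aged replicate 4, with the next aged library at 0.872 CPM.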

How the results depend on the processing

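The count of members called higher (13) was 6 at a minimum count of 30, where 14 members were tested, and 8 with the neutrophil and erythroid score as a covariate, and the count called lower (1) was 2 there, with Il1rn at −1.89 beside Lif. With that score the calls over all tested genes also fell, from 3471 to 1823 higher and from 3033 to 1570 lower. They were 2767 higher with the monocyte and macrophage score and 1988 with the muscle score, where 10 members were higher in each. The other settings gave 10 to 17 higher and 1 lower, and leaving out single libraries 12 to 15 higher and 1 lower. Library sizes alone moved the median of all tested genes from 0.014 to 0.24 and called 7034 of these 14067 genes (3471 before) and 17 members higher, adding Ccl21b, Il18, Il1b and Osm. Il1b was also called by limma-voom, on both TPM scales, with the replicate block and with the muscle score. With the replicate block 13 were higher and 1 lower, with Il33 lost (0.86, adjusted p = 0.142). Deviations of same-numbered libraries correlated at 0.11 to 0.26 in 5 of 6 pairs and at −0.12 in the other. As not every pair passed 0.1, and no label ties the numbers to a shared animal or batch, the libraries were taken as unpaired, and a weak pairing was not tested further. Only 2 of the 6 aged libraries correlated best with the young one of their own number. Signs changed, all of them uncalled but Il1rn, with the neutrophil and erythroid score for Cxcl9 (−1.39), Cxcl10 (−0.15), Ccl6 (−0.29), Il18 (−0.021) and Osm (−0.52), with the monocyte and macrophage score for Cxcl9 (−0.28), Ccl8 (−0.25) and Ccl27b (−0.034), with the muscle score for Cxcl16 (0.10), Ccl9 (0.19) and Ccl27b (−0.075), and with library sizes alone for Cxcl16 (0.19), Ccl9 (0.18), Ccl19 (0.20) and Tnfsf10 (0.094). Single libraries left out gave −0.077 to 1.25 for Cxcl9, −0.32 to 1.12 for Cxcl10, −0.18 to 0.032 for Cxcl16, −0.23 to 0.054 for Ccl9 and −0.20 to 0.13 for Ccl19. Ccl21d without young replicate 2 and Gdf15 without young replicate 4 were no longer tested. The cause of the other changes was not tested.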
